A study of Mus musculus with 12 samples.

Results

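Eicosanoids are signalling lipids made from arachidonic acid, and 10 genes of their synthesis, sensing and breakdown were followed in the kidney cortex of mice with and without ischemia-reperfusion (I/R) injury. The 10 genes were given as a list of symbols and all 10 were found among the 55487 gene rows of the count table. By role they are Pla2g4a (release of arachidonic acid), Ptgs1 and Ptgs2 (the cyclooxygenases COX-1 and COX-2), Ptges and Ptgds (synthases of prostaglandin E2 and D2), Alox5ap (leukotriene synthesis), Ptger3 and Ptger4 (the prostaglandin E2 receptors EP3 and EP4), Hpgd (inactivation of prostaglandins) and Ephx2 (soluble epoxide hydrolase).

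The RNA-seq series held 12 libraries in 4 groups of 3, and every mouse carried loxP-flanked alleles of Gfer, the gene of augmenter of liver regeneration (ALR). Ctrl (labelled WT, Sham) was the ALR flox/flox mouse, and PT-KO (labelled ALR knockdown, Sham) was ALR flox/flox with Ggt1-Cre, which acts in the proximal tubule. Ctrl+I/R and PT-KO+I/R were the same genotypes after 22 min of bilateral renal ischemia and 24 h of reperfusion. The mice were aged 6 to 8 weeks. The comparisons ask how injury and loss of ALR change the kidney transcriptome. Ctrl libraries are numbered 1, 2 and 3 here, PT-KO and Ctrl+I/R libraries 1, 2 and 4, and PT-KO+I/R libraries 2, 3 and 4.

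Library totals ran from 12165089 to 23123693 counts. Xist, the female transcript, had 22402 and 19755 counts in Ctrl libraries 1 and 2, where 4 Y-linked genes had 0, whereas the other 10 libraries had at most 11 Xist counts and 3109 to 5251 Y-linked counts. Comparisons with Ctrl therefore set male kidneys against a group that was partly female, and sex and condition cannot be fully told apart there. Both comparisons of PT-KO+I/R, with Ctrl+I/R and with PT-KO, were between male kidneys. Gfer itself overlapped between the uninjured genotypes and did not pass the test between the injured groups (log2 0.32, SE 0.13, adjusted p = 0.0723 in edgeR): its level was 11.4 to 14.4 counts-per-million (CPM) in Ctrl, 9.96 to 17.1 in PT-KO, 15.3 to 19.98 in Ctrl+I/R and 21.6 to 22.8 in PT-KO+I/R. These are counts over the whole gene in whole cortex, so they do not check a partial deletion in 1 cell type. The injury marker Havcr1, the gene of KIM-1, lay between 1.10 and 4.58 CPM without I/R, at 785, 2105 and 381 in Ctrl+I/R, against 2257, 3929 and 3226 in PT-KO+I/R. Library 2 of Ctrl+I/R was thus the highest of its group in Havcr1 and library 4 the lowest.

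As background, cytosolic phospholipase A2 frees arachidonic acid from membranes, the cyclooxygenases turn it into prostaglandin H2, and terminal synthases convert that into the separate prostanoids. COX-1 is made constitutively in many cells, whereas COX-2 is induced by inflammation and stress. In the kidney prostaglandin E2 acts on receptors of tubules and vessels to adjust salt and water transport and blood flow. EP3 lowers cyclic AMP and EP4 raises it. 15-hydroxyprostaglandin dehydrogenase, the product of Hpgd, ends prostaglandin signals by oxidation. Soluble epoxide hydrolase acts by hydrolysis on the epoxides that cytochrome P450 enzymes make from arachidonic acid.

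The promoter sequences of the 2 cyclooxygenases and of the 2 genes that fell most in PT-KO+I/R are shown because these 4 genes carry the main contrasts below. Each runs from 250 bases before to 50 bases after the RefSeq start of transcription (GRCm38.p6), 5′ to 3′ on the strand of the gene, all of which are on the plus strand. They lie at chr2:36230176-36230475 (Ptgs1), chr1:150099781-150100080 (Ptgs2), chr3:157566626-157566925 (Ptger3) and chr8:56294302-56294601 (Hpgd). Capitals mark matches, on either strand, to any of 5 short motifs, kappaB, CRE half-site, AP-1, TATA box and GC box, some of which overlap and whose letters are given below the sequences.
Ptgs1: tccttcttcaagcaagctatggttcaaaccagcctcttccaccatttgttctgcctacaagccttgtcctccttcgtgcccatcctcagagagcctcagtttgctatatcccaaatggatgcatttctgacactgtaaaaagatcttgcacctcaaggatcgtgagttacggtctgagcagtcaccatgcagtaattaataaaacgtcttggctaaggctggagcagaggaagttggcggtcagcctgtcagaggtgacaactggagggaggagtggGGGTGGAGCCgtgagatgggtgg
Ptgs2: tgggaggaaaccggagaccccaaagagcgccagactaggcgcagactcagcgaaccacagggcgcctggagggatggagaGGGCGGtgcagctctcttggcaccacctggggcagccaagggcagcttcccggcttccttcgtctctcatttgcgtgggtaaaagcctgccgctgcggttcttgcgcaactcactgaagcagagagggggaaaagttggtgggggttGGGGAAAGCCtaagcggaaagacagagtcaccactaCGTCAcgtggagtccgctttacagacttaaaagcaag
Ptger3: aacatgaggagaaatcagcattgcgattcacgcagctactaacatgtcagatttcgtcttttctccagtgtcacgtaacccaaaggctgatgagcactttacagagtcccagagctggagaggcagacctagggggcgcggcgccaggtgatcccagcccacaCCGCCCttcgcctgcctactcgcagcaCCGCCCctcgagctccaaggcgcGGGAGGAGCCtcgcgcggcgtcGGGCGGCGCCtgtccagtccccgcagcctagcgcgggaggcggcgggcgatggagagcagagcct
Hpgd: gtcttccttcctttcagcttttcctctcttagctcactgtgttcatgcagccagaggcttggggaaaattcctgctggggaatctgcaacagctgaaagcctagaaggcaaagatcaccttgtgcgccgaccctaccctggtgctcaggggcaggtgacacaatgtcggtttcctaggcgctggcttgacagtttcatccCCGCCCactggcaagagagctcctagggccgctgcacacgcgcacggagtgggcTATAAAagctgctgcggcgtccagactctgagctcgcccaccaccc

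Of the 10 genes, 8 had an entry in the promoter table, and Alox5ap and Ephx2 did not. A gene was counted for a motif if any of its windows held it. The shares over all are per window, for 32851 windows of 27025 genes, so the 2 kinds of share are unlike. A CRE half-site (TGACG), which reads on the other strand of Ptgs2, began 14 bases into the transcript. It was found for 1 of the 8 genes, Ptgs2, beside 20.8% of all 32851 mouse promoter windows. A TATA box (TATAAA) began at base 5 after the RefSeq start of Hpgd, whose start lies 33 bases further downstream in the GENCODE annotation. This motif was found for 2 of the 8 genes, Hpgd and Pla2g4a, beside 13.6% of all windows. The kappaB motif (GGGNNNNNCC) was found for 6 of the 8 genes and in 50.8% of all windows, and both cyclooxygenase windows shown held it. GC boxes (GGGCGG) were found for 5 of the 8 genes, against 35.7% of all windows, and AP-1 (TGANTCA) for 1, against 7.81%. These are matches of letters in a window and were not tested for function.

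Levels were compared between genes per length. On the scale of CPM per kilobase of exon, Ephx2 was the most abundant of the 10 transcripts in Ctrl, with a mean of 103 ± 50.8 (SD, n = 3). Hpgd (16.7 ± 6.63), Ptgds (14.0 ± 1.84) and Ptger3 (11.6 ± 0.918) followed. The order of these 3 was another in the male Ctrl library, with Hpgd at 9.08, Ptgds at 11.955 and Ptger3 at 10.9, and in PT-KO, with means of 8.33, 10.2 and 8.64. Ptges was at 6.19 ± 1.25, Ptgs1 at 5.19 ± 0.483, Pla2g4a at 1.64 ± 0.302, Alox5ap at 1.004 ± 0.323 and Ptger4 at 0.641 ± 0.177. Ptgs2 was the least abundant at 0.0938 ± 0.0421 and rested on 5 to 13 counts a library in Ctrl.

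**Figure D1:**
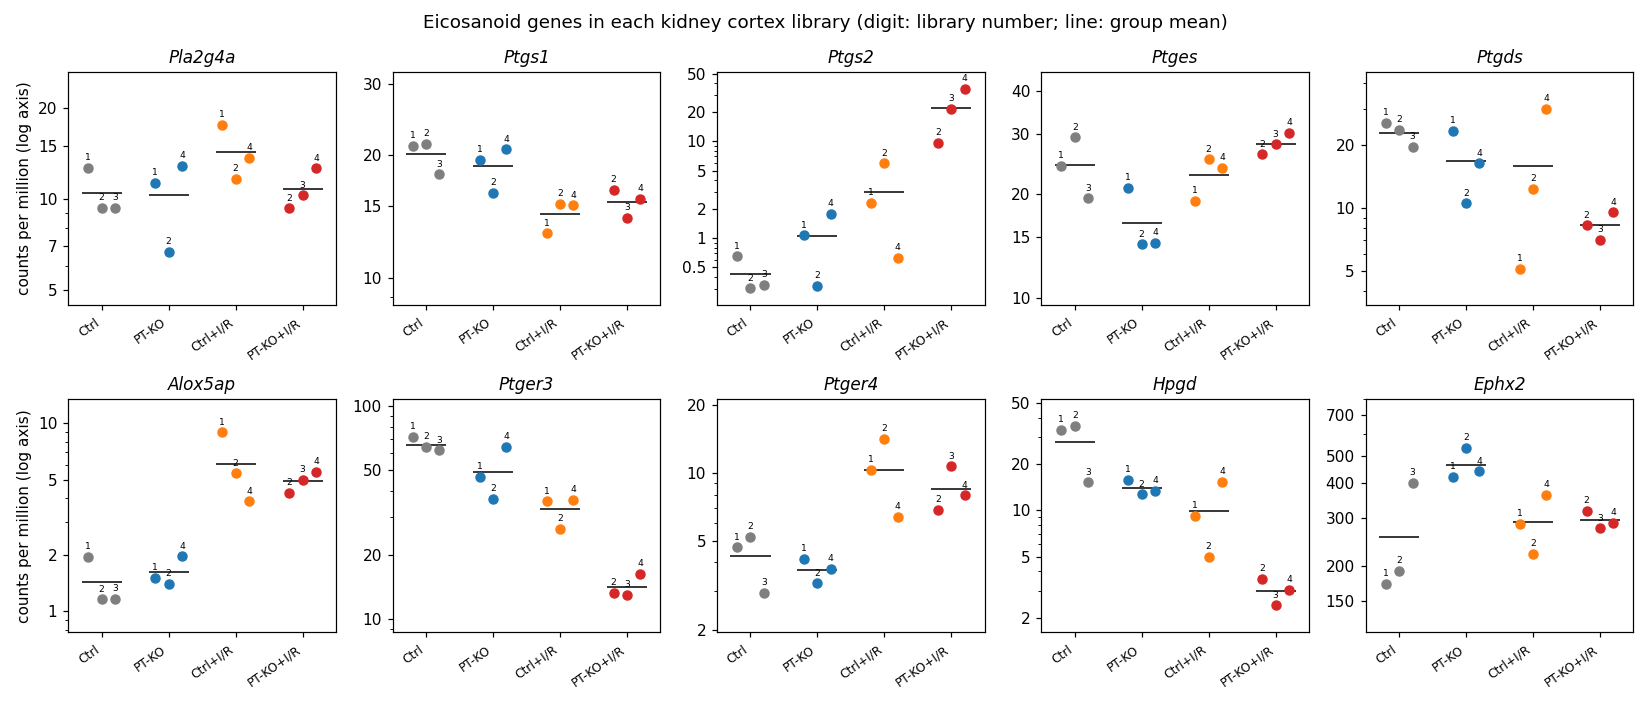
CPM (log axis) of the 10 genes in each of the 12 libraries, with the library number beside each point and a line at the group mean. Ptgs2 reaches 9.65 to 34.8 CPM in PT-KO+I/R and stays at or below 5.95 in the other 9 libraries, while Hpgd and Ptger3 are lowest in PT-KO+I/R.

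After I/R in knockout mice, 8 of the 10 genes changed. Between PT-KO+I/R and PT-KO, both male, Ptgs2, Alox5ap, Ptger4 and Ptges rose and Hpgd, Ptger3, Ptgds and Ephx2 fell, at an adjusted p under 0.05 in the quasi-likelihood test of edgeR over 15155 genes. In the same fit 65.5% of all genes were called, 32.9% higher and 32.7% lower, so 8 of 10 stands against a background in which most genes moved. For 8 of the 10 genes every library of one group lay above every library of the other, as it did for 70.8% of all genes. Pla2g4a and Ptgs1 did not pass the test.

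With control mice, 5 of the 10 genes were called between Ctrl+I/R and Ctrl, against 19.4% of the 15567 genes tested (11.4% higher, 7.97% lower). Alox5ap, Ptgs2 and Ptger4 rose and Ptger3 and Ptgs1 fell. Scaling by total counts took the median of all genes from -0.0115 to 0.106 here, moved the higher share of calls from 58.9 to 75.4%, and left Ptgs1 uncalled (log2 -0.37, adjusted p = 0.130). When single libraries were dropped in 6 refits, Ptgs2 and Ptger4 failed the test in 5 of them, Ptgs1 in 4, Alox5ap in 2 and Ptger3 in none. The background moved as well, from 3019 called genes to 379 without Ctrl library 1, 413 without Ctrl library 2 and, at the other end, 4061 without Ctrl+I/R library 4. The groups did not overlap in 4 of 10 genes, beside 43.6% of all genes. With sex as a covariate, which leaves male Ctrl library 3 as the reference, Alox5ap, Ptger3 and Ptger4 remained called.

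Between the injured groups, 3 of the 10 genes were called: in PT-KO+I/R Ptgs2 was higher than in Ctrl+I/R, and Hpgd and Ptger3 were lower. The background was 46.9% of 15281 genes (22.5% higher, 24.4% lower). Scaling by total counts in place of TMM moved the median of all genes to a log2 fold change of -0.21 and the share of higher among called genes from 48.0 to 28.0%, and the 3 genes kept their calls and directions. Each of the 3 calls stood in all 6 refits with a library dropped. With a block for the replicate number, where 1683 genes were called in all, Ptger3 alone kept its call. Ptgs2 was then at 2.87 (adjusted p = 0.142) and Hpgd at -1.44 (adjusted p = 0.117). Beside these 3 genes, Ptges too was without overlap between the groups, so 4 of 10 compare with 58.7% of all genes.

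Without I/R, 0 of the 10 genes and 0% of the 15291 tested were called by edgeR between PT-KO and Ctrl. For 1 gene, Ephx2, the groups were apart, beside 21% of all genes. At an unadjusted p under 0.05 there were 3, Ptges, Hpgd and Ephx2, beside 16.8% of all genes, and DESeq2 called 1 of the 10 (Hpgd) and 458 genes in all. Whether injury changed a gene by a different amount in knockout than in control mice was tested by the interaction term over 12 libraries. It was called for 2 of the 10 genes, Ptges and Ptger3, beside 30.6% of 16168 genes (46.5% of these positive, and 34.7% with total counts, where Ptges had an adjusted p of 0.0604). These comparisons share libraries, so their counts are not independent of each other.

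**Figure D2:**
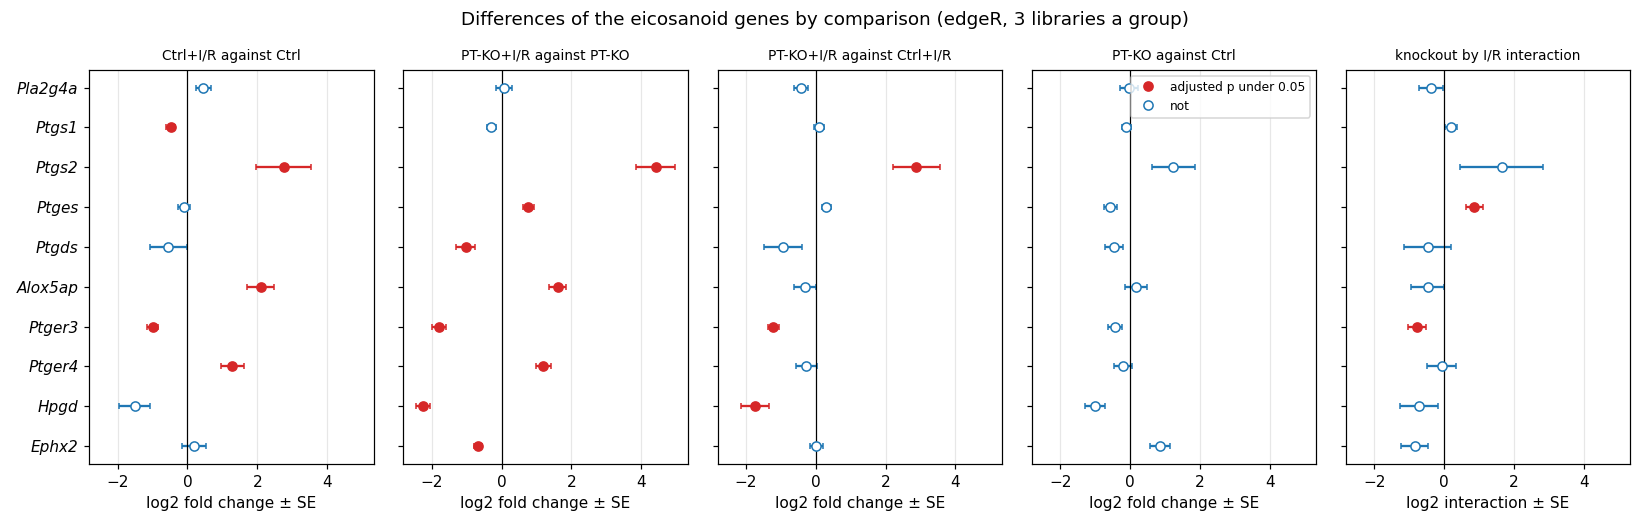
Log2 fold change with its standard error (SE) for the 10 genes in 4 comparisons and the interaction, from edgeR with 3 libraries a group. Filled red points passed an adjusted p of 0.05, which 8 did in the comparison of PT-KO+I/R with PT-KO, 3 between the injured groups and 0 without injury.

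Pla2g4a encodes cytosolic phospholipase A2, the enzyme that releases arachidonic acid from phospholipids. Its level was 12.7, 9.34 and 9.36 CPM in Ctrl, 11.3, 6.67 and 12.9 in PT-KO, 17.5, 11.6 and 13.6 in Ctrl+I/R and 9.31, 10.3 and 12.6 in PT-KO+I/R. All 4 groups overlapped their neighbours in the order of means. The log2 fold change was 0.46 (SE 0.21, adjusted p = 0.148) in Ctrl+I/R against Ctrl and 0.06 (SE 0.24, adjusted p = 0.829) in PT-KO+I/R against PT-KO. It was -0.42 (SE 0.20, adjusted p = 0.121) between the injured groups, and -0.62 with an adjusted p of 0.0268 when libraries were scaled by their total counts. The gene lies 138740 bases from Ptgs2 on chromosome 1, on the opposite strand.

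Ptgs1 was the steadier of the 2 cyclooxygenases. It was measured at 21.1, 21.4 and 18.0 CPM in Ctrl, 19.5, 16.2 and 20.7 in PT-KO and 12.9, 15.2 and 15.1 in Ctrl+I/R. In the PT-KO+I/R libraries it stood at 16.5, 14.1 and 15.7. Every Ctrl+I/R library was below every Ctrl library, and the fall was 1.40-fold (log2 -0.48, SE 0.12, adjusted p = 0.0366). The change in knockout mice had the same sign and missed the threshold (log2 -0.30, SE 0.13, adjusted p = 0.0747). Between the injured groups the values overlapped (log2 0.09, SE 0.13, adjusted p = 0.610). The annotation places 148 bases of the unclassified gene Gm43621 over its exons on the other strand, and the strand setting of the counts is not given.

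Ptgs2 had the largest rise of the 10 genes. Ctrl libraries held 0.652, 0.305 and 0.332 CPM, PT-KO libraries 1.07, 0.323 and 1.78, Ctrl+I/R libraries 2.32, 5.95 and 0.632, and PT-KO+I/R libraries 9.65, 21.8 and 34.8. The lowest PT-KO+I/R library was above the highest of any other group, while Ctrl+I/R library 4 lay within the range of the uninjured kidneys. PT-KO+I/R exceeded PT-KO 21.2-fold (log2 4.41, SE 0.55, adjusted p = 6.8e-05) and Ctrl+I/R 7.37-fold (log2 2.88, SE 0.68, adjusted p = 0.0105). With a library dropped, the log2 fold change ran from 3.93 to 5.02 against PT-KO and from 2.41 to 3.81 against Ctrl+I/R. Ptgs2 rested on 6 to 29 counts a library in PT-KO and 113 to 540 in PT-KO+I/R. Against PT-KO it thus passed the low-count filter through the higher group, and its fold there is uncertain.

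In control mice Ptgs2 rested on 5 to 13 counts a library in Ctrl and 10 to 114 in Ctrl+I/R. Its rise there was 6.75-fold (log2 2.76, SE 0.79) with an adjusted p of 0.0485. Sex as a covariate took that adjusted p to 0.159 (log2 3.15, SE 1.42). Dropping Ctrl+I/R library 2 took the difference to 1.80 (adjusted p = 0.125). The interaction was 1.65 (SE 1.18, adjusted p = 0.310), so a larger response in knockout than in control mice was not shown for this gene. In PT-KO against Ctrl the value was 1.24 (SE 0.63, adjusted p = 0.347) at 5 to 29 counts a library, so a difference was not detectable at this depth and number of mice.

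Within each library Ptgs2 can be set against Ptgs1 without any scaling between libraries. Per kilobase of exon, Ptgs2 made up 2.55, 1.20 and 1.54% of the sum of both cyclooxygenase transcripts in Ctrl and 4.46, 1.66 and 6.78% in PT-KO. The share was 13.2, 24.9 and 3.43% in Ctrl+I/R and 33.2, 56.8 and 65.3% in PT-KO+I/R. In 2 of 3 PT-KO+I/R libraries Ptgs2 was therefore the more abundant of the pair. This ratio and the 2 ratios below were chosen after the values had been seen and were not tested.

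Ptges encodes the inducible microsomal synthase that turns prostaglandin H2 into prostaglandin E2. Its levels were 24.2, 29.3 and 19.5 CPM in Ctrl, 20.9, 14.3 and 14.5 in PT-KO, 19.1, 25.2 and 23.9 in Ctrl+I/R and 26.1, 27.9 and 30.2 in PT-KO+I/R. In knockout mice it rose 1.69-fold after I/R (log2 0.76, SE 0.16, adjusted p = 0.00182), whereas in control mice the difference was -0.09 (SE 0.17, adjusted p = 0.722). The interaction was 0.86 (SE 0.25, adjusted p = 0.0226). That value fell to 0.54 (SE 0.28, adjusted p = 0.183) with sex as a covariate, and it failed the test in 5 of 12 refits with a library dropped.

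The injured groups did not overlap for Ptges, and the difference of 0.30 (SE 0.13) had an adjusted p of 0.0946. Without I/R the PT-KO mean was 16.5 ± 3.74 CPM against 24.3 ± 4.90 in Ctrl (log2 -0.56, SE 0.20, adjusted p = 0.244). The 2 female Ctrl libraries were the highest of the uninjured kidneys and the male Ctrl library 3 lay within the PT-KO range.

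Ptgds, which encodes the lipocalin-type synthase of prostaglandin D2, spread widely within groups. The levels were 25.7, 23.7 and 19.7 CPM in Ctrl, 23.6, 10.5 and 16.4 in PT-KO, 5.13, 12.4 and 30.1 in Ctrl+I/R and 8.28, 7.03 and 9.54 in PT-KO+I/R. Its fall of 2.05-fold between PT-KO and PT-KO+I/R was called (log2 -1.03, SE 0.27, adjusted p = 0.00635). In 1 fit to all 12 libraries, which shares the spread between groups, that adjusted p was 0.0829. Against Ctrl+I/R the difference was -0.94 (SE 0.54, adjusted p = 0.188), and it ranged from -1.37 without Ctrl+I/R library 1 to -0.08 without library 4.

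Alox5ap encodes FLAP, the protein that presents arachidonic acid to 5-lipoxygenase and is made mainly by myeloid cells. It rose from 1.96, 1.16 and 1.16 CPM in Ctrl to 8.97, 5.43 and 3.85 in Ctrl+I/R, a 4.27-fold change (log2 2.09, SE 0.39, adjusted p = 0.0169). In knockout mice it went from 1.51, 1.40 and 1.96 to 4.27, 5.03 and 5.54 CPM, a 3.04-fold change (log2 1.60, SE 0.25, adjusted p = 2.6e-04). All 6 injured kidneys were above all 6 uninjured ones. The injured groups overlapped (log2 -0.31, SE 0.31, adjusted p = 0.444), with a difference of 0.08 when Ctrl+I/R library 1 was dropped. The annotation also holds an antisense gene, Gm19719, over 189 bases of its exons. Alox5, the gene of 5-lipoxygenase itself, stayed at 0 to 0.669 CPM in the 12 libraries, 15 counts at most.

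Ptger3, the gene of the EP3 receptor and the more abundant of the 2 receptors, fell with injury in both genotypes. The levels were 71.9, 64.2 and 61.9 CPM in Ctrl, 46.5, 36.6 and 64.3 in PT-KO, 35.7, 26.5 and 36.2 in Ctrl+I/R and 13.3, 13.0 and 16.4 in PT-KO+I/R. The 3 PT-KO+I/R libraries were below all others. The fall was 2.00-fold in control mice (log2 -1.001, SE 0.15, adjusted p = 0.00959) and 3.47-fold in knockout mice (log2 -1.79, SE 0.20, adjusted p = 2.9e-05). PT-KO+I/R lay 2.32-fold below Ctrl+I/R (log2 -1.21, SE 0.17, adjusted p = 0.00118).

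The interaction for Ptger3 was -0.78 (SE 0.27, adjusted p = 0.0432). It failed the test in 9 of 12 refits with a library dropped, ranging from -0.95 without PT-KO library 2 to -0.54 without PT-KO library 4. With sex as a covariate it was -0.87 (SE 0.34, adjusted p = 0.0878).

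Ptger4 changed in the opposite direction. Its level was 4.66, 5.19 and 2.94 CPM in Ctrl, 4.16, 3.23 and 3.74 in PT-KO, 10.3, 14.1 and 6.38 in Ctrl+I/R and 6.83, 10.7 and 7.92 in PT-KO+I/R. Every injured kidney was above every uninjured kidney. It rose 2.42-fold in control mice (log2 1.28, SE 0.33, adjusted p = 0.0375) and 2.29-fold in knockout mice (log2 1.20, SE 0.22, adjusted p = 8.3e-04). The injured groups overlapped (log2 -0.27, SE 0.29, adjusted p = 0.469) and the interaction was -0.07 (SE 0.42, adjusted p = 0.917). Part of its exon sequence is annotated as shared with genes on the other strand, 82 bases with Ttc33 and 1015 with the pseudogene Gm15937, so some of its counts could belong to them.

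The ratio of the 2 prostaglandin E2 receptors moved accordingly. Per kilobase of exon the uninjured kidneys held 13.1 to 24.6 Ptger3 transcripts for each Ptger4 transcript. In Ctrl+I/R the ratio was 4.05, 2.19 and 6.63. The PT-KO+I/R ratios were 2.28, 1.42 and 2.41. All injured kidneys were below all uninjured ones, and the injured groups overlapped through Ctrl+I/R library 2.

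Hpgd had the largest fall of the 10 genes in both comparisons of PT-KO+I/R. Its levels were 33.6, 35.5 and 15.3 CPM in Ctrl, 15.9, 12.8 and 13.4 in PT-KO, 9.23, 5.01 and 15.4 in Ctrl+I/R and 3.59, 2.40 and 3.03 in PT-KO+I/R. PT-KO+I/R was below all other libraries, on 42 to 54 counts each. The fall against PT-KO was 4.76-fold (log2 -2.25, SE 0.19, adjusted p = 5.2e-06) and that against Ctrl+I/R 3.34-fold (log2 -1.74, SE 0.41, adjusted p = 0.00989).

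In control mice the difference of Hpgd was -1.51 (SE 0.44) with an adjusted p of 0.0515. Without Ctrl+I/R library 4 it was -1.96 (adjusted p = 0.0217) and without Ctrl library 3 -1.80 (adjusted p = 0.0375), and in the other 4 refits it was not called. The call depended on the fit, with an adjusted p of 0.00334 in DESeq2 and 0.00932 in 1 fit to all 12 libraries, while sex as a covariate left -0.64 (SE 0.41, adjusted p = 0.316). Sex moved with the level among the Ctrl mice, which was not tested: the female libraries 1 and 2 stood at 33.6 and 35.5 CPM, and the male library 3 at 15.3, inside the PT-KO range of 12.8 to 15.9. The PT-KO against Ctrl difference of -1.01 (SE 0.29, adjusted p = 0.208) therefore has sex moving with it and was -0.13 (SE 0.41, adjusted p = 1) with sex as a covariate. No comparison of several male Ctrl libraries was possible. The interaction was -0.73 (SE 0.54, adjusted p = 0.329), and -1.61 (SE 0.55, adjusted p = 0.0597) with sex as a covariate.

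The transcript of Hpgd was more abundant than that of Ptgs2 in every library of 3 groups, and less abundant in 2 of 3 PT-KO+I/R libraries. Per kilobase of exon there were 0.00316 to 0.00799 Ptgs2 transcripts for each Hpgd transcript in Ctrl and 0.00930 to 0.0487 in PT-KO. The ratio was 0.0923, 0.436 and 0.0151 in Ctrl+I/R and 0.989, 3.33 and 4.22 in PT-KO+I/R. The last group did not overlap any other, and Ctrl+I/R library 4 lay in the PT-KO range.

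**Figure D3:**
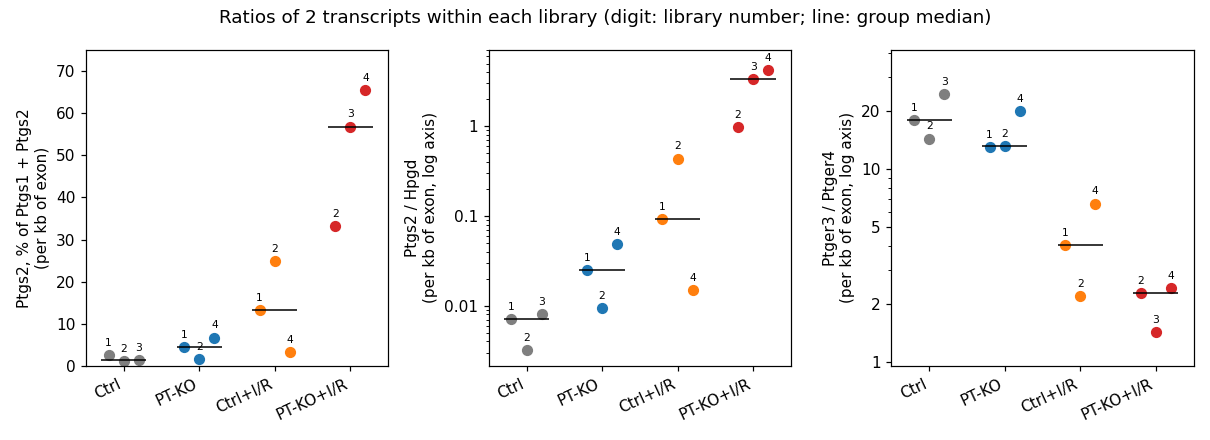
Share of Ptgs2 in both cyclooxygenase transcripts (percent), Ptgs2 over Hpgd and Ptger3 over Ptger4 (log axes), all per kilobase of exon within each library, with library numbers and a line at the group median. PT-KO+I/R libraries reach 33.2 to 65.3% Ptgs2 and a Ptgs2 to Hpgd ratio of 0.989 to 4.22, above all other libraries.

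Ephx2 followed neither pattern. Its levels were 173, 193 and 401 CPM in Ctrl, 421, 534 and 441 in PT-KO, 285, 222 and 363 in Ctrl+I/R and 318, 274 and 288 in PT-KO+I/R. In knockout mice it fell 1.59-fold after I/R (log2 -0.67, SE 0.11, adjusted p = 3.9e-04), with no overlap. In 1 fit to all 12 libraries that adjusted p was 0.0507. The injured groups overlapped (log2 0.01, SE 0.18, adjusted p = 0.975). As with Hpgd, the male Ctrl library 3 at 401 CPM stood close to the PT-KO range of 421 to 534 and apart from the female libraries. The PT-KO against Ctrl difference was 0.86 (SE 0.30, adjusted p = 0.240), and 0.22 (SE 0.23, adjusted p = 1) with sex as a covariate. It was 0.64 without Ctrl library 1, and 1.34 (adjusted p = 2.9e-04) without library 3, where female kidneys alone stood for Ctrl.

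Library 2 of Ctrl+I/R, with the highest Havcr1 of its group, also had the highest Ptgs2 and Ptger4 and the lowest Hpgd, Ptger3 and Ephx2 among Ctrl+I/R kidneys. Library 4, with the lowest Havcr1, had the lowest Ptgs2, Ptger4 and Alox5ap and the highest Hpgd, Ptgds and Ephx2. Library 2 was close to PT-KO+I/R in one injury marker and below it in another: Havcr1 was at 2105 CPM against 2257 in the nearest library, and Lcn2, the gene of NGAL, at 456 against 1279 to 1798. It was above every PT-KO+I/R library in Hpgd (5.01 against 3.59 CPM or less) and Ptger3 (26.5 against 16.4 or less). In Ptgs2 it was below all of them (5.95 against 9.65 or more). This is 1 library, and the part of the extent of injury in the differences between the injured groups was not tested.

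Bulk cortex does not tell fewer cells of a type from less RNA per cell, so marker genes of cell types were summed per library. The counts of markers called between the injured groups stand beside 22.5% of all genes called higher and 24.4% lower there. For the proximal tubule, 10 markers summed to 17055 to 19650 CPM in uninjured kidneys, to 5856 to 11597 in Ctrl+I/R and to 4690 to 5401 in PT-KO+I/R, and 6 of 10 were called lower. Thick ascending limb markers, a segment known to express EP3, ran from 6852 to 9236 CPM without I/R, from 1441 to 4192 in Ctrl+I/R and between 1973 and 2448 for PT-KO+I/R, with 4 of 6 called lower. All 6 had a negative log2 fold change between the injured groups, with a median of -1.98, beside -1.21 for Ptger3. The lowest sum of all, 1441 CPM, was that of Ctrl+I/R library 2. Principal cell markers summed to 121 to 371 CPM in Ctrl+I/R and 106 to 166 in PT-KO+I/R, with 2 of 6 called lower. Sums of distal convoluted tubule (318 to 664 and 355 to 501 CPM), intercalated cell (99.5 to 185 and 111 to 130), podocyte (376 to 409 and 372 to 430) and inner medulla markers (230 to 284 and 204 to 271) overlapped between the injured groups. Of their markers, 2 of 5, 2 of 6, 2 of 6 and 2 of 5 were called lower in that order, and 1 of the distal convoluted tubule higher. The part of these cells in the fall of Hpgd and Ptger3 was not tested.

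The macula densa is a known site of COX-2 in the kidney. Its 3 markers summed to 12.7 to 15.7 CPM in Ctrl, 6.03 to 7.88 in PT-KO, 6.31 to 12.4 in Ctrl+I/R and 3.51 to 4.44 in PT-KO+I/R, and 2 of 3 were called lower between the injured groups. The sum was lowest in the libraries with the highest Ptgs2, and it was low there, with Pappa2 at 0 counts in PT-KO+I/R library 2. The part of the macula densa in the level of Ptgs2 was not tested.

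Neutrophil markers (7 genes) rose from 0.920 to 2.71 CPM in uninjured kidneys to 9.79 to 43.0 in Ctrl+I/R and 56.5 to 88.4 in PT-KO+I/R, and 4 of 6 tested were called higher between the injured groups. Ly6g was at 0 counts in all uninjured libraries and in Ctrl+I/R library 4. Macrophage markers (8 genes) moved the other way, with 136 to 266 CPM in Ctrl+I/R and 73.6 to 81.0 in PT-KO+I/R, 6 of 8 being called lower and 1 higher. Alox5ap, which both cell types express, did not separate the injured groups. Its highest value, 8.97 CPM, was in Ctrl+I/R library 1, which also had the highest macrophage sum. Lymphocyte markers (6 genes) summed to 1.26 to 7.51 CPM in Ctrl+I/R and 0.171 to 0.644 in PT-KO+I/R and were too low to be tested there, and mast cell and platelet markers overlapped (7.33 to 11.3 and 4.61 to 8.14 CPM), with 1 of 3 tested called lower. Endothelial markers summed to 323 to 364 CPM in Ctrl+I/R and to 432 to 454 in PT-KO+I/R, with 4 of 6 called higher and 1 lower, and fibroblast markers to 517 to 677 and 114 to 213 CPM, with 3 of 6 called lower. Whether any of these moved Ptgs2 or the other genes was not tested.

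**Figure D4:**
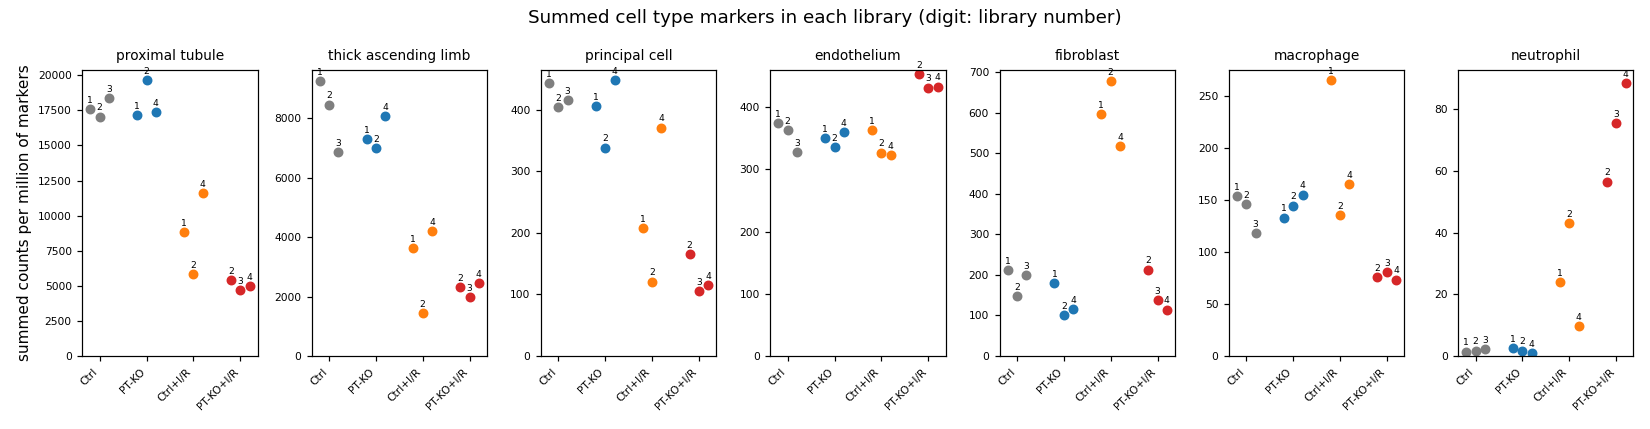
Summed CPM of cell type marker genes in each library, with library numbers. Proximal tubule sums fall from at least 17055 in uninjured kidneys to at most 5401 in PT-KO+I/R, neutrophil sums reach 56.5 to 88.4 in PT-KO+I/R, and macrophage sums are lowest there (73.6 to 81.0).

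The wider pathway was read from 6 lists, which hold 79 genes beside the 10. Between the injured groups 24 of 52 tested were called (11 higher, 13 lower), or 46.2% beside 46.9% of all genes, with a median log2 fold change of -0.23 beside -0.0049 over all genes. In PT-KO+I/R against PT-KO 36 of 53 were called (11 higher, 25 lower), or 67.9% beside 65.5%, with a median of -0.33 beside 0.011. The shares called were thus near the background. In Ctrl+I/R against Ctrl 14 of 54 were called (5 higher, 9 lower), or 25.9% beside 19.4%, in PT-KO against Ctrl 0 of 53 by edgeR (17 at an unadjusted p under 0.05, 9 called by DESeq2), and for the interaction 16 of 56, or 28.6% beside 30.6%. The genes named below were the called genes with the largest changes in each list, up to 3 in each direction. Of the 21 named between the injured groups, 13 kept their call in all 6 refits with a library dropped. The call was lost in 4 refits for Pla2g7, Ltc4s and Cyp4a12a, in 3 for Cbr1, Cyp4f18, Ptgfr and Cysltr1, and in 1 for Cyp2j9 (without PT-KO+I/R library 4). Of the 26 named in PT-KO+I/R against PT-KO, Pla2g7 and Cyp4a14 lost it in 2 refits each and the other 24 kept it.

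Among phospholipases A2, Pla2g12a rose and Pla2g5 fell in PT-KO+I/R. Pla2g12a, a secreted enzyme, was at 19.7 to 21.7 CPM in Ctrl+I/R and 37.6 to 53.9 in PT-KO+I/R (log2 1.06, SE 0.15, adjusted p = 0.00118). Pla2g5, also secreted, was at 12.6 to 14.1 and 2.38 to 3.42 CPM (log2 -2.17, SE 0.19, adjusted p = 2.3e-04). Pla2g7, which breaks down platelet-activating factor, was higher by 0.69 (SE 0.23, adjusted p = 0.0387).

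In the list of cyclooxygenases and prostanoid synthases, 6 of 13 were called between the injured groups, 3 in each direction, or 46.2% beside 46.9% of all genes. Beside Ptgs2, Hpgds, the hematopoietic prostaglandin D2 synthase, rose from 4.17 to 5.75 CPM in Ctrl+I/R to 8.50 to 12.2 in PT-KO+I/R (log2 0.95, SE 0.21, adjusted p = 0.00851). Cbr1, a carbonyl reductase that can act on prostaglandin E2, was higher by 0.56 (SE 0.18, adjusted p = 0.0335). Tbxas1, the thromboxane synthase, fell from 10.3 to 21.9 CPM to 1.02 to 2.39 (log2 -3.18, SE 0.41, adjusted p = 8.4e-04), beside the lower macrophage sum given above. Thromboxane is made chiefly by platelets and macrophages. Mast cell and platelet markers overlapped between the injured groups (7.33 to 11.3 and 4.61 to 8.14 CPM). The part of any of these cells in the fall of Tbxas1 was not tested. Akr1c18 (log2 -1.66, SE 0.38, adjusted p = 0.00911) and Fam213b, a prostamide/prostaglandin F synthase (log2 -1.58, SE 0.31, adjusted p = 0.00486), fell as well.

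In the list of lipoxygenases and leukotriene synthesis, Aloxe3, an epidermal-type lipoxygenase, was the one called higher between the injured groups, at 0.126 to 0.313 CPM and 2.65 to 4.83 (log2 3.93, SE 0.42, adjusted p = 4.5e-04). It rested on 2 to 6 counts a library in Ctrl+I/R and 31 to 86 in PT-KO+I/R, so it passed the low-count filter through the higher group and its fold is uncertain. Ltc4s, the leukotriene C4 synthase, fell (log2 -0.98, SE 0.30, adjusted p = 0.0299). In PT-KO+I/R against PT-KO the enzymes that trim leukotriene C4 at the brush border also fell, Ggt1 by 1.05 on the log2 scale (SE 0.12, adjusted p = 3.6e-05) and Dpep1 by 1.79 (SE 0.20, adjusted p = 3.3e-05). Both are proximal tubule genes, and the sum of the proximal tubule markers fell alongside. The part of these cells in the fall of Ggt1 and Dpep1 was not tested.

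In the list of prostaglandin transport and breakdown, Hpgd fell and Slco2a1 rose, while the efflux transporter Abcc4 was not called between the injured groups (log2 0.26, SE 0.13, adjusted p = 0.135). Slco2a1, which carries prostaglandins into cells, was at 52.2, 46.6 and 35.4 CPM in Ctrl, 39.7, 36.4 and 36.3 in PT-KO, 51.7, 75.7 and 45.2 in Ctrl+I/R and 135, 188 and 196 in PT-KO+I/R. PT-KO+I/R stood above all other libraries, at log2 1.59 over Ctrl+I/R (SE 0.22, adjusted p = 0.00108) and 2.20 over PT-KO (SE 0.14, adjusted p = 7.0e-07). Ptgr2, a reductase that acts on the product of the Hpgd step, fell from 154, 106 and 182 CPM in Ctrl+I/R to 50.03, 45.3 and 44.6 in PT-KO+I/R (log2 -1.67, SE 0.19, adjusted p = 6.1e-04). Zadh2, also a reductase of such products, rose by 0.55 (SE 0.10, adjusted p = 0.00401). Cbr3, a carbonyl reductase, rose by 1.74 (SE 0.29, adjusted p = 0.00248). Ptgr1 fell in PT-KO+I/R against PT-KO (log2 -0.83, SE 0.17, adjusted p = 0.00151).

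The list of P450 enzymes that make epoxides or hydroxy acids of arachidonic acid also holds the epoxide hydrolases Ephx1 and Ephx2. Of it, 6 of 17 genes tested were called between the injured groups (35.3% beside 46.9% of all genes) and 13 of 18 in PT-KO+I/R against PT-KO (72.2% beside 65.5%), 10 of these 13 lower. Cyp2c23, an arachidonic acid epoxygenase of the kidney, fell from 10.4 to 23.3 CPM in Ctrl+I/R to 2.31 to 5.09 in PT-KO+I/R (log2 -2.20, SE 0.38, adjusted p = 0.00299). Cyp2j5, an abundant kidney P450, fell from 702 to 1228 CPM to 431 to 449 (log2 -1.17, SE 0.21, adjusted p = 0.00308). Cyp4f18 fell by 1.71 (SE 0.44, adjusted p = 0.0147), while Cyp4a12a (0.70, SE 0.22, adjusted p = 0.0326) and Cyp2j9 (0.53, SE 0.14, adjusted p = 0.0168) rose. In PT-KO+I/R against PT-KO, Cyp2j11 fell by 2.63 (SE 0.10, adjusted p = 4.4e-08), and Cyp4a12b rose by 2.38 (SE 0.25, adjusted p = 2.0e-05). Cyp4a14 (1.65, SE 0.55, adjusted p = 0.0229) and Cyp4a32 (1.55, SE 0.43, adjusted p = 0.00942) rose there too. The Cyp4a and Cyp2j genes are close paralogs, so their counts may share reads.

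Among the other receptors, Ptgfr, which binds prostaglandin F2alpha, rose between the injured groups (log2 0.73, SE 0.22, adjusted p = 0.0257) and the leukotriene receptor Cysltr1 fell (log2 -1.58, SE 0.50, adjusted p = 0.0327). In PT-KO+I/R against PT-KO the thromboxane receptor Tbxa2r fell by 2.54 (SE 0.33, adjusted p = 8.9e-05). Oxgr1, a receptor of oxoglutarate and leukotriene E4, fell by 2.31 (SE 0.18, adjusted p = 2.4e-06). Ptger1, the EP1 receptor, fell by 2.21 (SE 0.60, adjusted p = 0.00805). Pla2g6, a calcium-independent phospholipase, fell by 0.53 (SE 0.15, adjusted p = 0.0101) and Alox12, the platelet-type lipoxygenase, by 1.06 (SE 0.22, adjusted p = 0.00178).

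**Figure D5:**
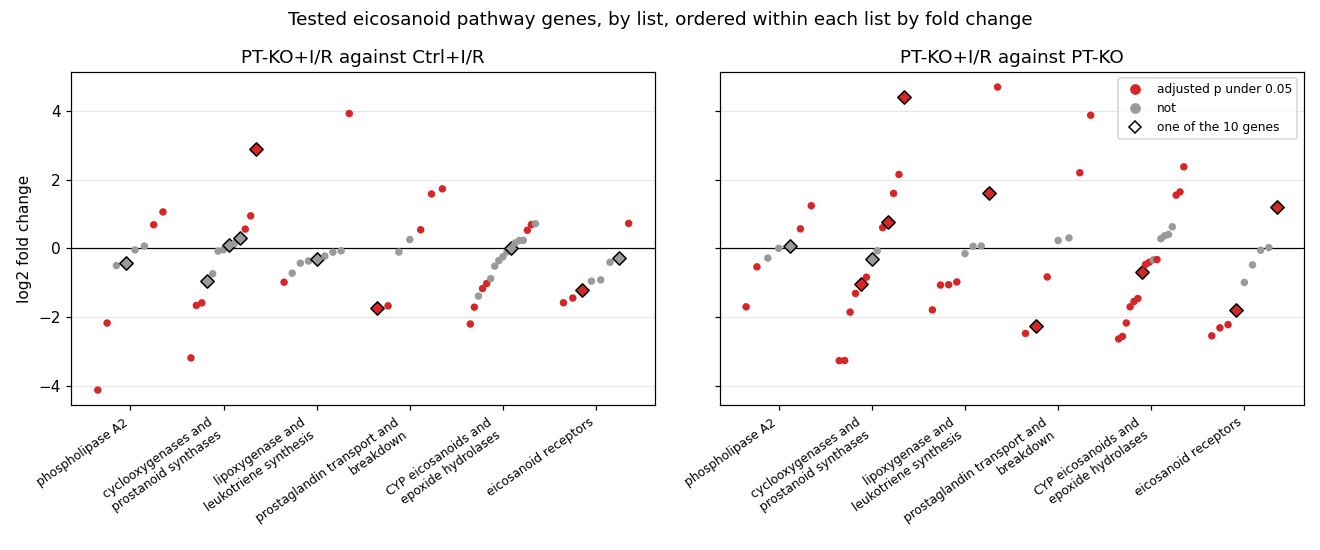
Log2 fold change (vertical axis) of each tested pathway gene for PT-KO+I/R, against the injured control on the left and against PT-KO on the right, by list. Red marks an adjusted p under 0.05 and diamonds the 10 genes. Ptgs2 lies at 2.88 and 4.41 at the top of the cyclooxygenase list, and Hpgd at -1.74 and -2.25 near the foot of the breakdown list.

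Over the 12 libraries, the 10 genes differed in which others they tracked. Pearson correlations of log2(CPM + 1) are given as descriptions, since the 12 libraries fall in 4 groups and differences between the groups enter each r. Hpgd and Ptger3 had r = 0.931 with each other, and Ptgs2 had r = -0.905 with Hpgd and -0.871 with Ptger3. Alox5ap and Ptger4 had r = 0.881. Ephx2 had r = -0.721 with Ptges and between -0.514 and 0.006 with the other 8.

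Across 16168 genes, those most like Ptgs2 were Exoc6b (r = 0.987), Trib1 (0.986) and Otud7b (0.986). Hpgd was closest to Akr1c19 (0.988), Slc22a29 (0.986) and Arhgef38 (0.986), and Ptger3 to Gm31105 (0.982), Zfp467 (0.978) and Fam81a (0.978). For Alox5ap the nearest were Lilrb4a (0.975), Lilr4b (0.972) and Ctsc (0.971), and for Ptger4 Dusp8 (0.976), Nfkb2 (0.967) and Rgs16 (0.966). Ephx2 was nearest to Armc12 (0.977), Ces1f (0.967) and Ctbs (0.965), and Ptges to Gsto1 (0.950), Itga6 (0.930) and Cbx3 (0.923). Ptgs1 was nearest to D7Ertd443e (0.940), 9430091E24Rik (0.934) and Itpkb (0.922), and Ptgds to Gtf3c1 (0.897), Ggt5 (0.897) and Zdhhc23 (0.895). Pla2g4a had the loosest match, with Nlrp3 (0.849), AI839979 (0.823) and Srgap2 (0.817).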

How the data were processed

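Total RNA of kidney cortex was sequenced by the authors on an Illumina platform, and 1 table of read counts per gene was deposited for the 12 libraries. The deposited counts are whole numbers, neither normalized nor filtered. The processing notes of the submitters name HISAT2 2.0.4 and mm10. The counting program, annotation and strand setting are not given in the sources used here. For RNA isolation the labels name both an RNeasy kit and Trizol, and the RNA-seq methods name TRIzol. Groups follow the labels. Control titles are numbered 1, 2 and 4 and the columns 1, 2 and 3, so Ctrl library 3 was placed by group alone. Replicates of a group are taken as separate mice.

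The members and lists were chosen with earlier results of these data known. Of 55487 gene identifiers 55141 had a symbol in GENCODE M21. Each comparison was fitted with edgeR 4.0.16 in R 4.3.3 on its 6 libraries (filterByExpr, TMM, quasi-likelihood F test), the interaction on all 12. P-values were adjusted by Benjamini-Hochberg over all genes tested, and a gene was called under 0.05. SE is the absolute log2 fold change over the square root of F. CPM levels use TMM over 12 libraries. Marker and list genes are described by counts, without set tests. With 3 libraries a side, the smallest p of an exact two-sided permutation test is 0.1, so none was used for calls. Genes named from the lists were called, had a mean of at least 1 CPM, and were up to 3 per list and direction with the largest change. The nearest 3 genes to each member were those with the highest r. Alternatives were DESeq2 1.42.0, other scalings and filters, a single fit over all libraries, a block for the replicate number, sex as a covariate, and leaving out each library. Replicate numbers showed no common pairing: residuals of 12 same-numbered pairs had a median correlation of -0.0305, and 1 exceeded 0.1. With 3 libraries a group such residuals cannot exclude a pairing. The scripts were tested on simulated counts. Precision is limited by 3 mice a group, and for Ptgs2 in uninjured kidneys also by depth.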

Additional observations from a re-analysis of the deposited data

Results flagged for a closer look

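The effect of I/R differed between the genotypes, by the interaction term of edgeR over 12 libraries, for 2 of the 10 genes and 16 of 56 other pathway genes (28.6%), beside 30.6% of all 16168 genes. Of the 16, 13 were among the genes named from the lists. A positive log2 interaction means a change after I/R that was higher in knockout than in control mice. For Ptges it was 0.86 (SE 0.25, adjusted p = 0.0226) and for Ptger3 -0.78 (SE 0.27, adjusted p = 0.0432).

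Positive interactions were found for Pla2g12a (1.13), Hpgds (1.22), Cbr1 (2.99), Cbr3 (2.11) and Slco2a1 (1.85). Negative interactions were found for Pla2g5 (-1.28), Tbxas1 (-2.62), Fam213b (-1.09), Ptgr2 (-1.89), Cyp2j5 (-1.52), Ggt1 (-0.86), Cyp4a12b (-1.99) and Tbxa2r (-1.42). Their adjusted p ran from 1.8e-04 for Ptgr2 to 0.0349 for Cyp4a12b.

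Sex moved with several of these values, because 2 of the 3 Ctrl libraries were female. Cbr1 stood at 253 and 227 CPM in the female Ctrl libraries and at 41.4 in the male one, and its interaction was 0.92 (SE 0.29, adjusted p = 0.0459) with sex as a covariate. Under the same covariate the call was lost for Ptges (0.54), Ptger3 (-0.87), Pla2g5 (-1.16), Hpgds (0.99), Cbr3 (1.04), Ggt1 (-0.45) and Cyp4a12b (-1.30). It was kept for Pla2g12a (1.01), Tbxas1 (-2.86), Fam213b (-1.37), Slco2a1 (1.51), Ptgr2 (-1.73), Cyp2j5 (-1.06) and Tbxa2r (-1.63). That fit rests on 1 male Ctrl library. With a library dropped, the call failed in 8 of 12 refits for Fam213b and Cyp4a12b, in 7 for Ggt1, in 2 for Hpgds, in 5 for Ptges and in 9 for Ptger3, and in none for the other 9 pathway genes named.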

How the results depend on the processing

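Of the 10 genes' values under 8 alternatives, those with DESeq2 size factors kept direction and call in 50 of 50, DESeq2 in 47 of 49, no low-count filter in 47 of 50, at least 10 counts in every library in 45 of 46, total counts in 44 of 50, 1 fit to 12 libraries in 37 of 40, sex as a covariate in 40 of 50 and the replicate block in 37 of 50. With at least 10 counts required in every library, Ptgs2 was tested only between the injured groups. Where a call changed, the cause was not tested.

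Among injured kidneys (PT-KO+I/R minus Ctrl+I/R), total counts gave -0.12 for Ptgs1 and -0.19 for Ephx2, and Ephx2 was -0.0031 without the low-count filter and -0.019 with at least 10 counts. For Ctrl+I/R minus Ctrl, Ptges was 0.016 with total counts, and sex as a covariate gave 0.22 for Ptges, -0.47 for Ephx2 and 3 called genes of the 10. For PT-KO minus Ctrl, the sex covariate gave 0.13 for Pla2g4a, 0.062 for Ptgs1, 0.33 for Ptger4 and -0.035 for Gfer. DESeq2 called 1 of the 10 and 9 other pathway genes there, and edgeR without the low-count filter 1 and 8. The interaction was called for 1 of the 10 with total counts and 0 with the sex covariate.

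Libraries share only a number, and whether that number pairs them is not known. Under the replicate block the injured groups had 1 of the 10 called (Ptger3), Ptgs2 at 2.87 (adjusted p = 0.142), Hpgd at -1.44 (adjusted p = 0.117), 10 other pathway genes called and Alox5ap at 0.091. PT-KO minus Ctrl had 3 and 19 called and Alox5ap at -0.077. The interaction had 1 of the 10 called, Ephx2 (-1.28, adjusted p = 0.0235), and Ptgds at 0.010. Ptges (1.005, adjusted p = 0.0523) and Ptger3 (-0.51, adjusted p = 0.113) were not called for it under the block.

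Leaving out 1 library at a time, the count called of the 10 ran from 3 to 4 between the injured groups, 8 to 9 for PT-KO+I/R minus PT-KO, 1 to 7 for Ctrl+I/R minus Ctrl (lowest without Ctrl library 1 or 2, highest without Ctrl+I/R library 4), 0 to 3 for PT-KO minus Ctrl (3 without Ctrl library 3) and 0 to 2 for the interaction. Other pathway genes called ran from 16 to 26, 33 to 39, 1 to 16, 0 to 21 and 12 to 22 in the same order. Signs turned as follows: between the injured groups Alox5ap ran from -0.55 to 0.079, Ptger4 from -0.52 to 0.0074 and Ephx2 from -0.16 to 0.20. For PT-KO+I/R minus PT-KO, Pla2g4a ran from -0.18 to 0.26. For Ctrl+I/R minus Ctrl, Ptges ran from -0.22 to 0.074 and Ephx2 from -0.018 to 0.68. For PT-KO minus Ctrl, Pla2g4a ran from -0.23 to 0.21 and Gfer from -0.034 to 0.33. For the interaction, Ptgds ran from -0.90 to 0.38 and Ptger4 from -0.32 to 0.22.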
